A study of Mus musculus with 12 samples.

Results

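Among 12 arrays of sorted mouse cells, 2 blood arrays carried the genes of natural killer (NK) cells, and the expression of the one from tumor-bearing mice was compared with the one from normal mice. The array labelled Tumor Blood Macrophage Low (the tumor low array) came from C57BL/6 mice with GL261, a mouse glioma line grown in the brain. The array labelled Normal Blood Macrophage High (the normal high array) came from normal C57BL/6 mice. The methods describe the implanted mice as female and give no sex for normal mice. Both arrays were chosen by their signals for NK cell genes such as Klra8, Ncr1 and Gzma, so the presence of these genes is a description and not a finding. The names high and low are thus crossed between tumor and normal, and they may have been exchanged in one pair. The study describes its sorted macrophages as CD11b+ cells with high CD45, but neither it nor the labels say what high and low stand for in blood, nor how many mice an array pools. Itgam, the gene for CD11b, is therefore no independent readout. They give an age of 7 weeks at implantation and 2 weeks of tumor growth with the same words for all 12 arrays, the normal ones included. The other arrays hold brain microglia and macrophages, Gr-1 positive and negative cells, and the blood macrophage arrays tumor high and normal low, which carry myeloid genes and serve here as the myeloid-type pair. Every condition has 1 array, so no difference could be tested, and the number of arrays limits the precision of every value.

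NK cells are innate lymphocytes that kill stressed, infected or transformed cells with perforin and granzymes. Whether they fire depends on the balance between activating receptors and inhibitory receptors that read MHC class I on the target, and many of these receptors in the mouse belong to the killer cell lectin-like receptor (Klr) family. IL-15, sensed through Il2rb, keeps them alive, and the T-box factors Eomes and T-bet (Tbx21) direct their development and maturation in blood.

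The cell type markers set both arrays apart from the other blood macrophage arrays. All values are log2 signals as deposited, and the background of an array was the 95th percentile of its olfactory receptor genes, which blood cells are not expected to use. It stood at 9.25 on the tumor low array and at 10.09 on the normal high array. Of 13 NK markers, 13 were above background on the tumor low array and 11 on the normal high array, against 0 on tumor high and 0 on normal low. The median NK marker signal was 12.51 on tumor low, 11.12 on normal high, 7.06 on tumor high and 7.44 on normal low. Macrophage genes were near the floor on both NK-type arrays: Csf1r, the receptor for the macrophage growth factor CSF1, read 7.68 and 6.38, and Lyz2, the myeloid lysozyme, read 8.34 and 8.21, all below background. Of 10 monocyte markers, 3 were above background on tumor low and 0 on normal high, and of 11 neutrophil markers 0 and 0, so the word macrophage in both labels goes against the genes measured. B cell genes were present too. Of 9 B cell markers, 9 were above background on tumor low and 6 on normal high, so neither array is NK cells alone, and 7 of 9 were above background on tumor high and on normal low as well. The median B cell marker signal was 11.97 on tumor low and 10.85 on normal high, not far below the NK medians. It was 10.04 on tumor high and 10.52 on normal low. Of 7 MHC class II presentation genes, 6 were above background on tumor low and 4 on normal high, with medians of 11.79 and 11.36. Genes that NK and B cells share cannot be assigned to either in the lists below. Of 10 T cell markers 3 were above it on each NK-type array, beside 1 to 4 on all 12 arrays, brain arrays included. In bulk arrays of this kind, fewer cells of a type and less RNA per cell cannot be told apart.

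**Figure D1:**
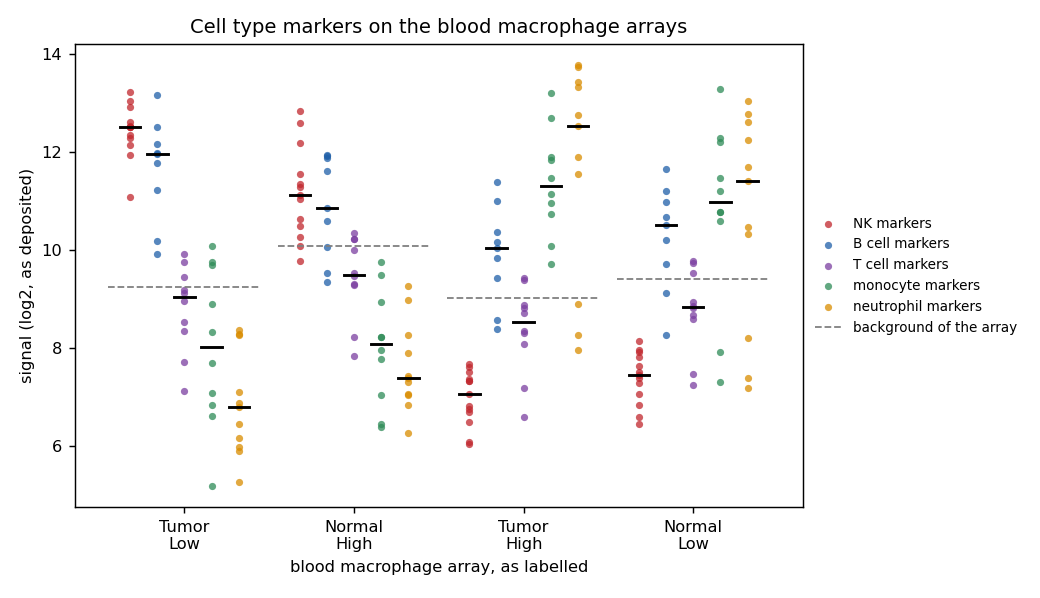
Log2 signal as deposited (vertical axis) of each cell type marker gene (points, with the list median as a bar) on the 4 blood macrophage arrays (horizontal axis, named by label), with the background of each array as a dashed line. NK markers have medians of 12.51 and 11.12 on Tumor Low and Normal High and lie below background on Tumor High and Normal Low, where neutrophil and monocyte markers are high.

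The stretch of 250 bases before the start of 5 NK marker genes is printed to show where the letters read by RUNX factors and T-box factors, both known regulators of NK genes, do and do not occur. The sequences come from RefSeq (GRCm38.p6), on the strand of each gene: Ncr1 at chr7:4337465-4337714 (+), Klra8 at chr6:130129899-130130148 (-), Gzma at chr13:113100982-113101231 (-), Prf1 at chr10:61297586-61297835 (+) and Tbx21 at chr11:97115332-97115581 (-). Capitals mark the RUNX letters ACCACA or TGTGGT and the T-box letters TCACAC or GTGTGA, searched on both strands, and none of the marked runs overlap here.
Ncr1: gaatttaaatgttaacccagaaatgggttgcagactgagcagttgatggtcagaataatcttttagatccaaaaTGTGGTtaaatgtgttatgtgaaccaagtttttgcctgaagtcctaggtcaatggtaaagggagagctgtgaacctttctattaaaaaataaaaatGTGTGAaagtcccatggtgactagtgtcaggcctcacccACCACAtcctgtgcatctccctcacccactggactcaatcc
Gzma: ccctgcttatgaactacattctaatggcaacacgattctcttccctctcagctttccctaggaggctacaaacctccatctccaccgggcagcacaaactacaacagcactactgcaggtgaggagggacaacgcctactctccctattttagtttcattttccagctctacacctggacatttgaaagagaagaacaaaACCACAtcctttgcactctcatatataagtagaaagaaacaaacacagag
Prf1: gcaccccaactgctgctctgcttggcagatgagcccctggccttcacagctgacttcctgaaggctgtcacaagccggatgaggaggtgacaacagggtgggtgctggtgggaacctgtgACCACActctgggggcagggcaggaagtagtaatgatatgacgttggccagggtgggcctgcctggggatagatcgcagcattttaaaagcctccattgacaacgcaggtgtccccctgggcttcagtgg
Klra8: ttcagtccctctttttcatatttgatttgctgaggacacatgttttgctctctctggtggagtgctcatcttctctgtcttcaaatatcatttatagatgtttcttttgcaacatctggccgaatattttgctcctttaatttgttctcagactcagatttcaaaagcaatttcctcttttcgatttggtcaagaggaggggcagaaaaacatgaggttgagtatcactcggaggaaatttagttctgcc
Tbx21: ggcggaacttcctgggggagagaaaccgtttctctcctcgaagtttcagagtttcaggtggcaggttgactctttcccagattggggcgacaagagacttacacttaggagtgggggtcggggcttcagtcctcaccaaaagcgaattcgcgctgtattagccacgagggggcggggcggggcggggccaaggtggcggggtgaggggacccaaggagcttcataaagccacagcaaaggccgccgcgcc
The Ncr1 stretch holds 2 RUNX runs, which begin at -176 and -41 from the start, and 1 T-box run at -80. Gzma holds 1 RUNX run at -50 and Prf1 1 at -130, while Klra8 and Tbx21 hold neither set of letters. Of the 11 NK markers with an entry, 8 held the RUNX letters, against 14.2% of 27025 promoters, and 3 held the T-box letters, against 12.2%. Of the 14 immediate early genes with an entry, described further on, 0 held the RUNX letters and 1 the T-box letters. These matches describe letters and not binding sites, and the NK markers were chosen for their shared expression.

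All 13 NK markers read higher on the tumor low array than on the normal high array, by a median of 1.17 on the log2 scale as deposited and 1.17 after quantile normalization, which gives both arrays 1 distribution. At least 2-fold higher were 8 of the 13 and 0 were lower, beside 13.5% of all 19938 genes higher and 13.2% lower as deposited, and 20.7% and 3.67% after quantile normalization. These shares are not matched for signal, here and for the lists below, and bright genes as a group also read higher. The 325 genes with a mean of both arrays from 11 to below 12 had a median of 0.90 as deposited. After quantile normalization 39.4% of them were at least 2-fold higher. For the 106 genes at 12 or more, these values were 0.41 and 14.2%. The size of the difference varied widely between markers. Klra8, the Ly49H receptor for a cytomegalovirus protein, read 13.24 on tumor low and 12.83 on normal high, a difference of 0.40 as deposited and 0.37 after quantile normalization. Gzma, the granule protease granzyme A, read 12.91 and 12.58, a difference of 0.33 and 0.22. Ncr1, the NKp46 activating receptor, read 12.51 and 11.12, a difference of 1.40 and 1.29, or 2.63-fold. In both settings these 3 genes thus had 2 small differences and 1 more than 2-fold. After cyclic loess normalization, an alternative scaling, the differences were larger, at 1.05 for Klra8, 0.89 for Gzma and 2.10 for Ncr1.

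The largest marker differences belonged to a cytokine receptor and a transcription factor. Il2rb, the chain shared by the IL-2 and IL-15 receptors, read 12.61 on tumor low and 10.27 on normal high, a difference of 2.34 as deposited and 2.30 after quantile normalization, or 5.06-fold. Tbx21 read 12.14 on tumor low and 9.78 on normal high, where it was below background, so tumor low was at least 4.15-fold higher. Prf1, which codes for perforin, read 12.36 and 10.64, a difference of 1.72. Nkg7, a granule membrane protein, read 12.52 and 11.04, a difference of 1.47, and Eomes read 11.94 and 10.50, a difference of 1.44. Gzmb, granzyme B, read 12.51 and 11.35, a difference of 1.17. Among the other lectin-like receptors Klre1 differed by 1.01, Klrd1, the CD94 partner of the NKG2 receptors, by 0.99, and Klrb1c, the NK1.1 antigen of C57BL/6 mice, by 0.87. Klrk1, the NKG2D receptor, read 11.08 and 10.09, just under the normal high background. On the myeloid-type pair the same 13 genes were all below background.

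**Figure D2:**
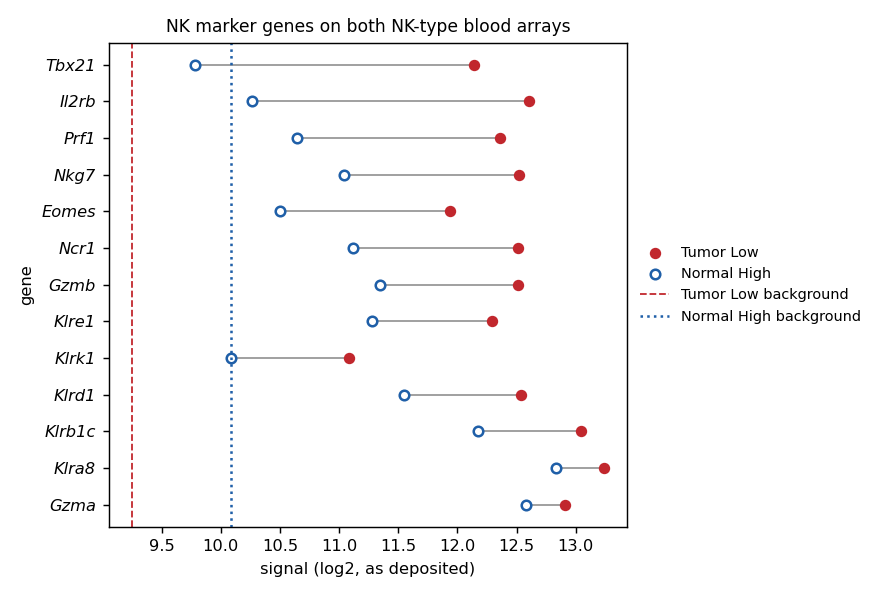
Log2 signal as deposited (horizontal axis) of each NK marker gene (vertical axis, ordered by difference) on Tumor Low (filled) and Normal High (open), 1 array each, with the background of each array as a vertical line. All 13 genes read higher on Tumor Low, from 0.33 for Gzma to 2.36 for Tbx21, and Tbx21 and Klrk1 lie below background on Normal High.

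The normal high array had a weaker contrast between expressed and unexpressed genes than the other arrays. Only 11.2% of its genes were above background, the lowest share of the 12 arrays, against 31.1% on tumor low. Olfactory receptor genes, as a baseline of genes not expected in blood, had a median of 8.63 on normal high and 7.75 on tumor low, and 371 of 1027 were at least 2-fold lower on tumor low, or 112 after quantile normalization. Their median difference was -0.88 as deposited and -0.54 after quantile normalization, with an SD of 0.45 and 0.46 over these genes. Quantile normalization moved the median of all genes from -0.47 to -0.17. Genes that the myeloid-type arrays express went the other way: over the 4890 genes above background on both tumor high and normal low, the median was 0.53 as deposited and 0.77 after quantile normalization, with 31.1% at least 2-fold higher and 2.31% lower. Genes expressed outside NK cells therefore also read higher on tumor low, and the part of this weaker contrast in the differences given here was not tested.

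**Figure D3:**
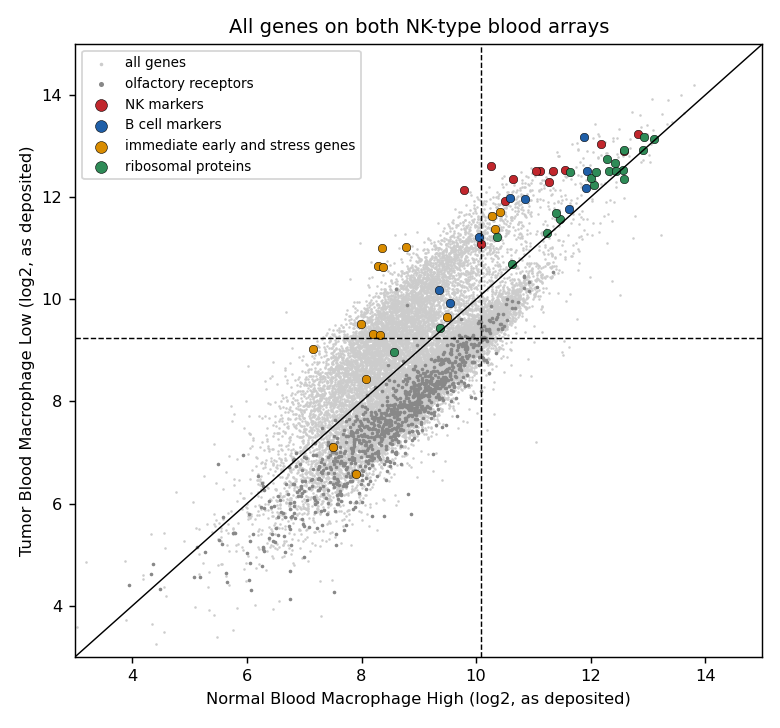
Log2 signal as deposited of every gene on Normal High (horizontal axis) and Tumor Low (vertical axis), 1 array each, with the line of equality and the background of each array (dashed). Olfactory receptor genes lie below the line by a median difference of -0.88, while NK markers, B cell markers and most immediate early genes lie above it and ribosomal protein genes lie near it.

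Values were therefore read in 3 ways, and list medians are also given as floored medians, with values under the normal high background raised to it on both arrays. Above background on both arrays were 2072 genes, for which the difference can be read directly, and 10.8% of these were at least 2-fold higher on tumor low and 4.54% lower, with a median of -0.56, and after quantile normalization 10.8% and 4.1%. Of the 11 NK markers in that set, 7 were at least 2-fold higher and 0 lower. Above background on tumor low only were 4133 genes, whose value on normal high is a bound, so the signal on tumor low was set against the normal high background and is given as "at least". With this rule 428 genes, or 2.15%, were at least 2-fold higher and 149, or 0.747%, at least 2-fold lower, and 8 of the 13 NK markers were among the former. A gene above background on the tumor low array alone can be given as higher there but not as lower, so such counts describe the lists and support no direction. Below background on both arrays were 13578 genes, whose differences carry little information.

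Activating NK receptors had a median difference of 0.93 as deposited and 1.18 after quantile normalization over 16 measured members. As deposited 7 were at least 2-fold higher and 0 lower, beside 13.5% and 13.2% of all genes. Read as a difference or bound 4 were higher, beside 2.15%, and the floored median was 0.79. Cd244a, the 2B4 receptor for CD48, read 11.88 on tumor low and 10.12 on normal high, a difference of 1.76. It is not NK-specific in these data, since it read 12.35 and 11.66 on tumor high and normal low. Klrc2, the activating NKG2C partner of CD94, read 11.85 and 9.97, below the normal high background, and was at least 3.39-fold higher. Klrb1f read 10.98 and 9.15 and was at least 1.86-fold higher. Cd7, a lymphocyte surface receptor, read 11.27 and 9.91, at least 2.27-fold higher, while Cd2, an adhesion receptor, read 12.59 and 11.74, a difference of 0.84. Cd160 and Slamf6 were below background on both arrays.

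Inhibitory NK receptors had a median of 0.84 as deposited and 0.96 after quantile normalization over 13 members, with 5 at least 2-fold higher and 0 lower, beside 13.5% and 13.2% of all genes. As a difference or bound 4 were higher, beside 2.15%, and the floored median was 0.84. Klrb1b, an inhibitory receptor of the NK1.1 family, read 11.84 and 10.56, a difference of 1.28. Klrc1, the inhibitory NKG2A chain, read 11.14 and 9.81, at least 2.06-fold higher, and Klrg1, an inhibitory receptor of mature cells, read 10.97 and 9.64, at least 1.85-fold higher. Klri2, counted in this list though an inhibitory role was not checked here, read 13.92 and 13.08, a difference of 0.84. The Ly49 genes are near-identical copies, so their values are uncertain: Klra3 differed by 0.83 and Klra6 by 1.00. Another 4 Ly49 probe sets that carry the symbols of 3 to 7 genes each differed by 0.66 to 1.38. Of 23 genes of the whole Klr family, 8 were above background on both arrays, and 8 of the 23 were at least 2-fold higher and 0 lower as deposited. Both receptor lists thus read higher on tumor low by their medians, and their difference from each other could not be tested.

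The adaptors and kinases behind these receptors had a median of 1.16 as deposited and 1.24 after quantile normalization over 16 members, with 9 at least 2-fold higher and 0 lower, beside 13.5% and 13.2% of all genes. As a difference or bound 7 were higher, beside 2.15%, and the floored median was 0.76. Tyrobp (DAP12), the signaling chain of activating Ly49 receptors, read 11.67 and 10.84, a difference of 0.83. Fcer1g, the chain used by NKp46 and the Fc receptor, read 12.06 and 10.89, a difference of 1.18. The kinase Syk read 12.11 and 10.55, a difference of 1.56, and the kinase Fyn read 12.81 and 11.45, a difference of 1.35. These 4 genes were also above background on the myeloid-type arrays. Sh2d2a, an adaptor of T and NK cells, read 11.27 and 8.76 and was at least 2.27-fold higher, and Txk, a Tec family kinase, read 11.31 and 9.81 and was at least 2.33-fold higher. On tumor high and normal low both were below background. Lat, the adaptor best known from the T cell receptor, read 10.34 on tumor low and 10.75 on normal high, a difference of -0.41. Genes above background on both arrays had a median of -0.56, so no direction was read for Lat. In the myeloid-type pair it differed by -0.95.

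Cytotoxic granule genes had a median of 1.17 as deposited and 1.29 after quantile normalization over 21 members, with 12 at least 2-fold higher and 0 lower, beside 13.5% and 13.2% of all genes. As a difference or bound only 5 were higher, beside 2.15%, and the floored median was 0.33. Beside Prf1, Nkg7 and Gzmb, Ctsw, a cathepsin of cytotoxic lymphocytes, read 11.40 and 10.22, a difference of 1.18. Rab27a, which docks granules at the membrane, read 11.51 and 9.58, at least 2.68-fold higher. Serpinb9, an inhibitor of granzyme B, read 10.63 and 8.96, at least 1.45-fold higher, and Fasl, the death ligand, read 10.76 and 9.43, at least 1.59-fold higher. Srgn, the proteoglycan that packs granules, differed by 0.26. The granzyme values were spread. Gzma differed by 0.33 and Gzmb by 1.17, while Gzmm read 9.43 and 10.11, a difference of -0.69. Genes above background on both arrays had a median of -0.56, so no direction was read for Gzmm. Gzmc and Gzmk were below background on both arrays.

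Secreted factors of NK cells had a median of 0.07 as deposited and 0.30 after quantile normalization over 12 members, with 3 at least 2-fold higher and 1 lower, beside 13.5% and 13.2% of all genes. As a difference or bound 1 was higher, beside 2.15%. Ifng, the signature NK cytokine, read 8.44 and 8.64, below background on both arrays, and so did Tnf at 7.95 and 8.76 and Csf2 at 8.59 and 9.84. Chemokine genes were present. Ccl5 read 13.34 and 12.49, a difference of 0.85, and Ccl3 read 11.25 and 9.69, at least 2.23-fold higher. Ccl3 also differed by 2.11 in the myeloid-type pair.

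Receptors for cytokines had a median of 1.15 as deposited and 1.39 after quantile normalization over 16 members, with 9 at least 2-fold higher and 0 lower, beside 13.5% and 13.2% of all genes. Only 3 members were above background on both arrays, 4 were higher as a difference or bound, beside 2.15%, and the floored median was 0.12. Next to Il2rb, the IL-12 receptor chain Il12rb2 read 11.77 and 9.63 and was at least 3.19-fold higher. Its partner Il12rb1 read 9.38 and 9.88, the latter below background, so no fold or direction can be given. Il18rap, a chain of the IL-18 receptor, read 11.47 and 10.10, a difference of 1.37, and Ifngr1, a chain of the interferon gamma receptor, read 12.01 and 10.53, a difference of 1.47. The myeloid-type pair differed by 1.41 in Il18rap and by -0.03 in Ifngr1. Tgfbr2, which senses TGF-beta, read 10.56 and 9.58, at least 1.38-fold higher. Among 10 genes listed as inhibitors of cytokine signaling, 0 were above background on both arrays. Smad3, which was listed with them though it carries the TGF-beta signal, read 11.57 and 10.09 and was at least 2.79-fold higher. It was the 1 listed gene at least 2-fold higher as a difference or bound. Cish, Socs1, Socs2 and Socs3 were below background on both arrays.

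Transcription factors of NK cells had a median of 1.33 as deposited and 1.54 after quantile normalization over 19 members, with 15 at least 2-fold higher and 0 lower as deposited, beside 13.5% and 13.2% of all genes. As a difference or bound 10 were higher, beside 2.15%, and the floored median was 1.104. All 5 members above background on both arrays were at least 2-fold higher, beside 10.8% of such genes. They were Eomes, at 1.44, Id2, which holds back E proteins in innate lymphocytes, at 1.104, Ets1 at 1.27, Ikzf1 (Ikaros) at 1.503 and Klf2, which governs lymphocyte trafficking, at 1.16. Ikzf3 (Aiolos) read 11.999 and 10.02, at least 3.76-fold higher, and Runx3 read 12.05 and 9.92, at least 3.90-fold higher. Gata3 read 10.90 and 8.91, at least 1.76-fold higher. Ets1, Ikzf1, Ikzf3, Klf2 and Runx3 were also above background on both myeloid-type arrays, where they differed by -0.22, 0.24, -0.26, 0.32 and 0.42.

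Genes of mature and of immature NK cells were listed apart. Mouse NK cells lose CD27 and gain CD11b and Klrg1 as they mature. The 11 genes of mature CD11b-high cells had a median of 1.43 as deposited and 1.59 after quantile normalization, with 9 at least 2-fold higher and 0 lower, beside 13.5% and 13.2% of all genes. As a difference or bound 5 were higher, beside 2.15%, and the floored median was 0.89. The 11 genes of immature CD27-high cells had a median of 0.33 and 0.62, with 1 higher and 0 lower, 0 higher as a difference or bound and 8 without either. Among the mature genes, Itgam, which codes for CD11b, read 11.85 and 9.83 and was at least 3.38-fold higher. S1pr5, the receptor that lets NK cells leave marrow and lymph nodes, read 11.39 and 9.58, at least 2.46-fold higher. Spn, the sialoglycoprotein CD43, read 11.63 and 10.20, a difference of 1.43, and Zeb2, a factor of terminal maturation, read 10.92 and 9.16, at least 1.78-fold higher. Cx3cr1, a chemokine receptor of mature cells, read 9.66 and 9.63, the latter below background, so no fold can be given. Among the immature genes Cd27 itself read 10.16 and 10.07 and Cxcr3 9.87 and 9.79, both below background on normal high, where their levels cannot be read. Lgals1 read 12.17 and 11.35, a difference of 0.82. Itgam, S1pr5, Spn and Zeb2 were above background on the myeloid-type arrays as well, so these genes do not mark NK cells alone, and the difference between both lists was not tested.

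Trafficking receptors and integrins had a median of 1.07 as deposited and 1.07 after quantile normalization over 18 members, with 10 at least 2-fold higher and 0 lower, beside 13.5% and 13.2% of all genes. As a difference or bound 10 were higher, beside 2.15%, and the floored median was 1.07. Of 7 members above background on both arrays, 6 were at least 2-fold higher, beside 10.8% of such genes. Itgal and Itgb2, the chains of the adhesion receptor LFA-1, differed by 1.48 and 1.57, Itga4 by 1.16 and the chemokine receptor Cxcr4 by 1.197. Itga2, the DX5 antigen used to sort NK cells, read 11.57 and 10.07, just under the normal high background, and was at least 2.79-fold higher. Selplg, a ligand of selectins, read 11.46 and 9.67, at least 2.59-fold higher. Of 10 immune checkpoint genes 0 were above background on both arrays, and 4 were above it on tumor low. Entpd1 (CD39), which breaks down extracellular ATP, read 10.06 and 8.23, both under the normal high background, so no fold can be given, though the values as deposited differed by 1.83. Pdcd1, Tigit and Cd96 read 9.31, 9.39 and 9.72 on tumor low.

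**Figure D4:**
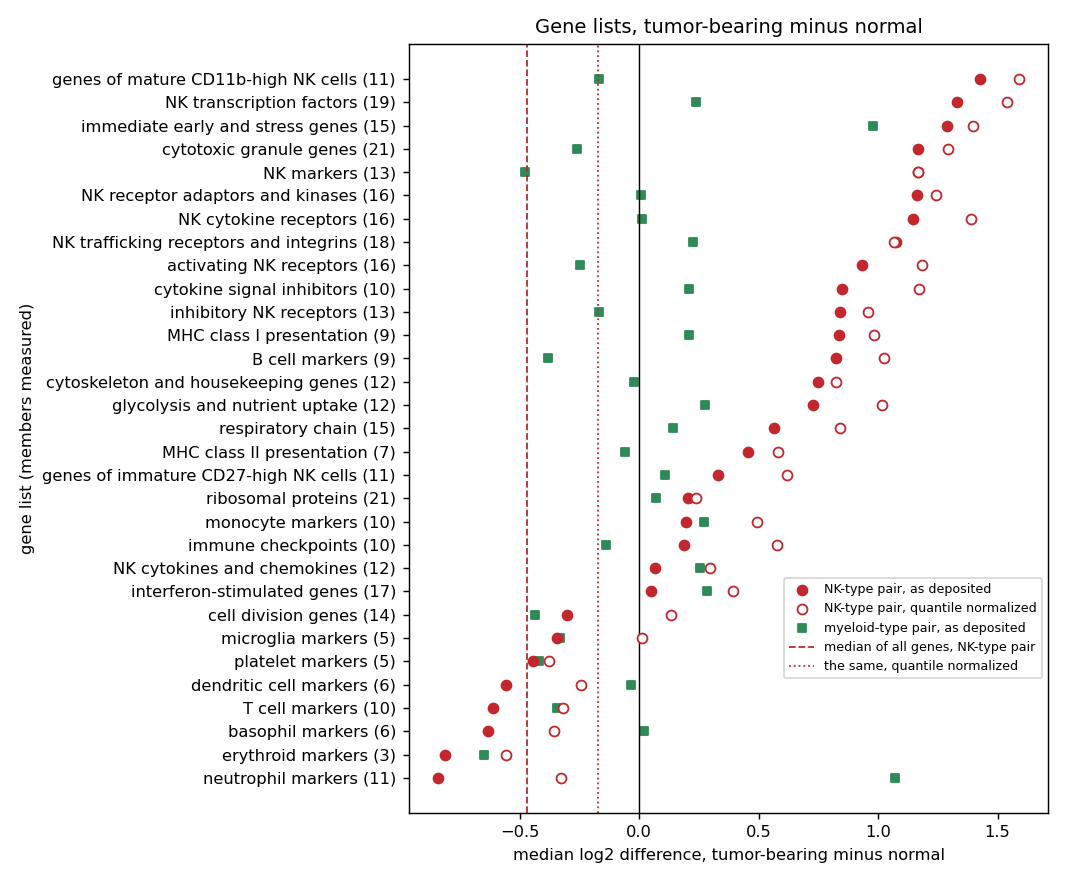
Median log2 difference, tumor-bearing minus normal (horizontal axis), of each gene list (vertical axis, with the members measured in brackets) for the NK-type pair as deposited (filled circles) and after quantile normalization (open circles) and for the myeloid-type pair as deposited (squares). Vertical dashed and dotted lines mark the median of all genes in the NK-type pair, -0.47 and -0.17. The lists of mature NK genes and NK transcription factors have medians of 1.43 and 1.33, and neutrophil, erythroid, basophil and T cell markers lie at the other end. Below background on both arrays are 11 of 11 neutrophil, 7 of 10 T cell, 3 of 6 basophil and 1 of 3 erythroid markers.

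Immediate early genes, which cells switch on within minutes of a stimulus, had a median of 1.29 as deposited and 1.40 after quantile normalization over 15 members. As deposited 10 were at least 2-fold higher and 1 lower, and after quantile normalization 11 and 0, beside 13.5% and 13.2% of all genes as deposited and 20.7% and 3.67% after it. As a difference or bound only 3 were at least 2-fold higher, beside 2.15%. The floored median was 0, since 8 of the 15 gave neither a difference nor a bound. Fos read 11 on tumor low and 8.35 on normal high, below background there, and was at least 1.88-fold higher. Fosb read 11.02 and 8.78, at least 1.90-fold higher, Jun 10.66 and 8.29, at least 1.48-fold higher, and Dusp1, a phosphatase that shuts off MAP kinases, 10.63 and 8.38, at least 1.45-fold higher. The 3 members above background on both arrays were all at least 2-fold higher, beside 10.8% of such genes. Jund differed by 1.29, Zfp36, which destabilizes cytokine messages, by 1.35 and Btg2 by 1.05. Nr4a1, which antigen receptor signals induce, read 9.66 and 9.49, the latter below background.

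This list also read higher in tumor-bearing mice on the myeloid-type pair, which is made of other arrays. There its median was 0.98 as deposited and 0.88 after quantile normalization, with 7 of 15 at least 2-fold higher, beside 1.79% of all genes higher and 5.79% lower. Fos read 12.85 on tumor high and 11.28 on normal low, Dusp1 13.83 and 12.26, Fosb 11.998 and 9.33 and Egr1 11.64 and 9.20. The normal low values of Fosb and Egr1 were below the background of that array, 9.41. Fos, Jun and Dusp1 were higher on the tumor array in both pairs, and Nr4a1 differed by 0.16 and 0.13. With 1 array a condition, a difference between tumor-bearing and normal mice and one between single sorted samples cannot be told apart.

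**Figure D5:**
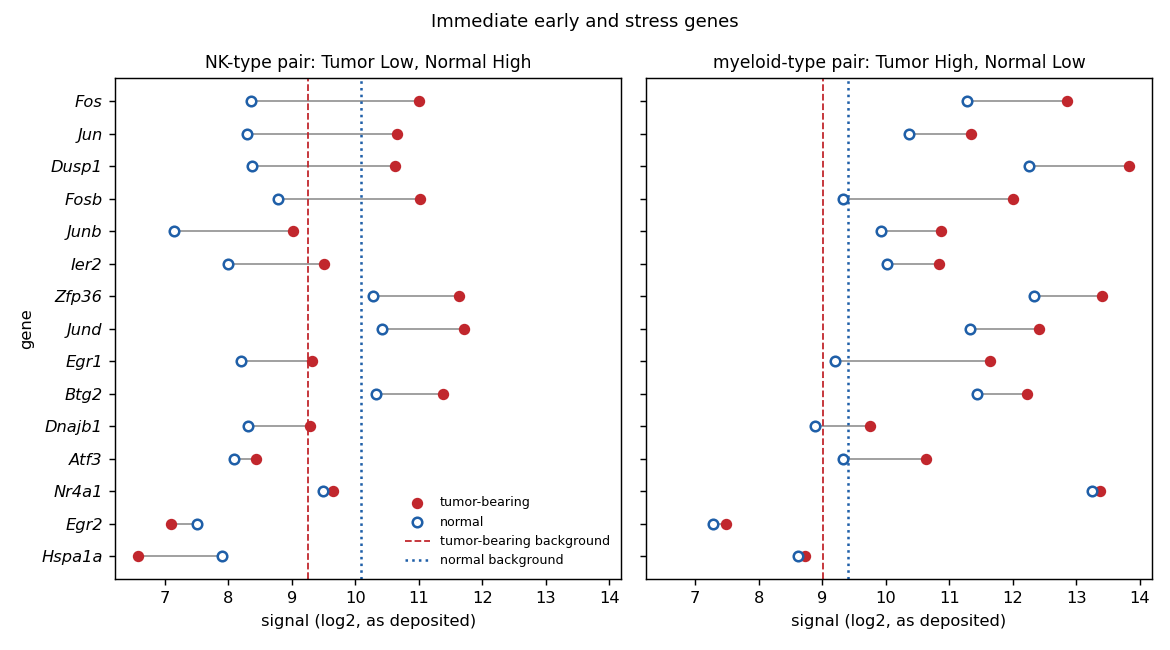
Log2 signal as deposited (horizontal axes) of immediate early and stress genes (vertical axis) on the NK-type pair (left) and the myeloid-type pair (right), tumor-bearing filled and normal open, 1 array each, with the background of each array as a vertical line. Fos read 11 and 8.35 on the left and 12.85 and 11.28 on the right, and most genes read higher on the tumor array of both pairs.

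Interferon-stimulated genes had a median of 0.05 as deposited and 0.39 after quantile normalization over 17 members, which turned to -0.25 after cyclic loess normalization, and 15 of them were below background on both NK-type arrays. Irf7, the factor that amplifies the interferon response, read 8.72 and 8.81 here and 10.90 and 10.88 on tumor high and normal low. Isg20, an exonuclease, was the 1 member above background on both arrays, with a difference of -0.89. MHC class I genes had a median of 0.83 as deposited and 0.98 after quantile normalization over 9 members, and a floored median of 0. The peptide transporter gene Tap1 read 11.02 and 10.18, a difference of 0.84, and B2m, the light chain, 13.90 and 13.36, a difference of 0.55. Nlrc5, the activator of class I genes, differed by -0.59, near the median of -0.56 over genes above background on both arrays. Its 19 probe sets ranged from -0.59 to 1.86.

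Few genes of growth and metabolism could be read on both arrays. Of 14 cell division genes 13 were below background on both arrays, among them Mki67 at 8.17 and 6.79 and Top2a at 7.94 and 7.68, and the list's median changed sign from -0.30 as deposited to 0.13 after quantile normalization. Glycolysis and nutrient uptake genes had a median of 0.73 and 1.02 over 12 members. As deposited 5 were at least 2-fold higher and 0 lower, beside 13.5% and 13.2% of all genes. As a difference or bound 1 was higher, beside 2.15%, and the floored median was 0.086. The 3 above background on both arrays, Pgk1, Pkm and Ldha, differed by 0.11, 0.03 and 0.23. Myc read 11 and 9.95, at least 1.88-fold higher. Respiratory chain genes had a median of 0.56 and 0.84 over 15 members, with 0 at least 2-fold higher and 0 lower as deposited. Of 21 ribosomal protein genes 19 were above background on both arrays and 0 were at least 2-fold higher or lower, with a median of 0.20 and 0.24, which turned to -0.21 after cyclic loess normalization. Housekeeping and cytoskeleton genes had a median of 0.75 and 0.82 over 12 members, with Eef2 at 1.23, Cfl1 at 1.17, Actb at 0.75 and Ppia at -0.09.

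Other blood cells stood on both sides of these values. B cell markers had a median of 0.82 as deposited and 1.02 after quantile normalization over 9 members. As deposited 4 were at least 2-fold higher and 0 lower, beside 13.5% and 13.2% of all genes. As a difference or bound 4 were higher, beside 2.15%, and the floored median was 0.57. B cell markers thus read higher on tumor low as NK markers did. The 325 genes with a mean signal from 11 to below 12 had a median of 0.90 as deposited. The B cell factors Pax5 and Ebf1 differed by 1.29 and 1.38 and the surface receptor Cd22 by 1.12, while the antigen receptor chains Cd79a and Cd79b differed by 0.57 and 0.26 and Ms4a1 (CD20) by 0.15. T cell markers had a median of -0.61 as deposited and -0.32 after quantile normalization over 10 members, with 0 at least 2-fold apart. On each array 7 of them lay under background, and the olfactory receptor median of -0.88 and -0.54 lay lower still, so no direction was read from this list. Cd3e read 9.91 and 10.23, Cd4 9.76 and 10.23 and Cd8a 9.45 and 10.35, and these were the 3 members above background on both arrays. Erythroid markers had a median of -0.81 as deposited over 3 members, near that of olfactory receptors, so no direction was read from them either. Slc4a1, the band 3 anion exchanger of red cells, read 9.26 and 10.32, a difference of -1.06. Alas2, the first enzyme of heme synthesis in red cells, read 11.64 and 12.23, a difference of -0.59. Both were above background on both arrays, and all such genes had a median of -0.56. In the myeloid-type pair Slc4a1 differed by -1.405 and Alas2 by -0.65. Basophil markers had a median of -0.63 as deposited and -0.36 after quantile normalization over 6 members, with 1 at least 2-fold higher and 1 lower. Gata2, a factor of basophils, mast cells and progenitors, was the 1 member above background on both arrays and read 9.31 and 10.50, a difference of -1.19. Cpa3, a carboxypeptidase of mast cells and basophils, read 11.11 and 7.97 and was at least 2.03-fold higher, while Mcpt8 and Ms4a2, which mark basophils, were below background on both arrays.

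The genes with the largest differences after quantile normalization were mostly below background on one array. On the higher side stood Kcnma1, Cpa3, Hsph1, Fos, Klrc3, Bin2, Sh2d2a, Jun, Lpin1 and H2-Q4, all above background on tumor low only. Hsph1, a co-chaperone of HSP70, read 11.26 and 8.58, at least 2.24-fold higher, and Lpin1, a phosphatidate phosphatase, read 11.32 and 8.97, at least 2.35-fold higher. Klrc3, an NKG2 family receptor, read 10.39 and 7.80, at least 1.23-fold higher, and H2-Q4, a nonclassical class I gene, read 10.76 and 8.45, at least 1.59-fold higher. Bin2 read 10.74 and 8.17, at least 1.57-fold higher.

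On the lower side stood Lyz1, Hoxa7, Vmn1r180, Tmem267, Vmn1r43, Srsy, Ifnz, Hrnr, Krtap19-2 and Lama5, all above background on normal high only. Lyz1, a lysozyme gene with a close copy in Lyz2, read 7.20 on tumor low and 11.04 on normal high, at least 3.45-fold lower, with 11.80 and 11.70 on tumor high and normal low. Other macrophage genes did not accompany it, since Lyz2 and Csf1r were below background on both NK-type arrays. Hoxa7 read 8.91 and 11.52, at least 4.80-fold lower. Apart from Lyz1, at 0.10, all of these genes also read lower on the tumor array of the myeloid-type pair. Their differences there ran from -2.88 for Vmn1r180 to -1.18 for Lama5, so the list is not particular to the NK-type pair. Hoxa7 and Lama5 were below background on both myeloid-type arrays. The list holds 2 vomeronasal receptor genes, a hornerin gene, a keratin-associated gene and the multicopy Y-linked gene Srsy, which are best known from other tissues. Since the implanted mice were female and the sex of normal mice is not given, the Srsy signal is not read as expression. As families, 84 of 167 vomeronasal receptor genes and 33 of 99 keratin genes were at least 2-fold lower as deposited, and 25 and 17 after quantile normalization, and these families moved with the olfactory receptor baseline.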

How the data were processed

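Affymetrix Mouse Gene ST arrays measured 12 flow-sorted populations, 1 array each, from RNA amplified in 2 cycles. Per the methods, the authors used Affymetrix's Expression Console to turn scanned intensities into expression values (the submitters' notes name RMA, with no version), and the deposited values are log2 signals. The table holds 28944 probe sets, of which 21789 carry 1 gene symbol, 1621 several and 5534 none. Probe sets with 1 symbol were kept, for 999 genes with more than 1 such probe set the one with the highest mean signal was taken, and 19938 genes remained. The symbols come from GEO's platform annotation, and the genome build of the array table is not given in the sources used here.

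Differences are tumor low minus normal high, as deposited and after quantile normalization over the 12 arrays. The background of an array was the 95th percentile of 1027 olfactory receptor genes. Where only 1 array exceeded it, the difference was given as a bound against the background of the dimmer array, and 2-fold means a log2 difference of at least 1. The 31 gene lists hold 394 genes, of which 347 were measured. The members, lists and rules were chosen with earlier results of these data known. The text names the NK markers, the 10 genes with the largest quantile-normalized difference each way (predicted genes and small RNAs left out), up to 5 members of each list with the largest differences, and some further list members, chosen after their values were seen. The pair was formed across the labels high and low, since both arrays carry NK genes, and the labelled pairs are given with the alternatives. The computation was tested on simulated data, with both arrays built from the tumor low profile plus a whole-array shift and equal noise. The weaker contrast of the normal high array was not simulated, so that test does not bear on it. Alternatives were median centring, cyclic loess, the mean of probe sets, floors, filters, a 4-fold threshold and other background percentiles. Computation ran in Python 3.11.15 (numpy 2.4.6; pandas 2.3.3; matplotlib 3.10.9), with limma 3.58.1 under R 4.3.3 for the cyclic loess.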

Additional observations from a re-analysis of the deposited data

Results flagged for a closer look

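Kcnma1, which codes for a calcium-activated potassium channel, went opposite ways in both pairs of blood arrays. Its quantile-normalized difference, tumor-bearing minus normal, was 3.52 in the NK-type pair and -1.268 in the myeloid-type pair, and the difference between both was not tested. It read 9.76 on tumor low, 6.68 on normal high, 8.83 on tumor high and 10.30 on normal low. Its value rests on the brighter of 2 probe sets. As deposited they differed by 3.08 and -1.72 in the NK-type pair, so they disagree.

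NK markers also appeared on 1 array outside the blood macrophage arrays. On the array of Gr-1 negative cells from tumor brains 7 of 13 NK markers were above background, against at most 1 on a normal brain array. Gzmb read 10.65 there, Gzma 10.30 and Klra8 9.67, below their values on both NK-type blood arrays.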

How the results depend on the processing

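No paired analysis was possible because the labels carry no replicate numbers and each condition has 1 array, and no replicate could be left out. As deposited, 2-fold or more separated 2696 genes upward and 2634 downward. The higher count was 4120 after quantile normalization, 4146 after median centring, 428 with values under the normal high background raised to it on both arrays and 56 at 4-fold. The lower count was 731 after quantile normalization, 849 after median centring, 627 after cyclic loess, 26 with the floor, 220 when genes under background on both arrays were dropped, 177 with this filter and quantile normalization, and 96 at 4-fold. The filters and the floor lower counts by construction, and other causes were not tested. The NK marker median of 1.17 became 1.67 after cyclic loess. In the pairs as labelled it was 4.89 for tumor low minus normal low and -4.00, the opposite direction, for tumor high minus normal high, since 1 array of each such pair lacks NK genes. With the 90th and 99th percentile as background, 13 and 9 NK markers lay above it on normal high, and 13 and 13 on tumor low. Of 31 list medians 13 moved by more than the spread of olfactory receptor genes with the floor and 7 with cyclic loess. Single genes were less stable: of 132 differences, 79 moved with cyclic loess and 69 with the floor. With the floor the medians of MHC class I, immediate early, respiratory chain, cytokine inhibitor, T cell, neutrophil, dendritic cell and basophil genes became 0, cytokine receptors 0.12, granule genes 0.33, glycolysis 0.086, mature NK genes 0.89 and erythroid genes -0.23. Between settings on the same pair, the list medians that changed sign were those of cell division genes, interferon-stimulated genes, microglia markers, monocyte markers and ribosomal proteins. The weak contrast of the normal high array limits what can be read there, and genes under its background have only a bound.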

Other observations

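Heat shock genes were read after Hsph1 was seen among the largest differences, so this list was chosen after its values were seen and supports nothing. Of 17 heat shock proteins and co-chaperones, 12 were at least 2-fold higher on tumor low and 1 lower as deposited, with a median of 1.28, and 1.55 after quantile normalization. All genes had 13.5% and 13.2%. Only 4 of the 17 were above background on both arrays, and 7 were at least 2-fold higher as a difference or bound, beside 2.15%. Hsp90aa1, the inducible HSP90, read 12.20 and 10.23, a difference of 1.97. Hspa8, the constitutive HSC70, read 13.05 and 11.76, a difference of 1.29. Stip1, which links both chaperones, read 11.45 and 9.68, at least 2.56-fold higher. The stress-induced genes Hspa1a and Hspb1 were below background on both arrays. In the myeloid-type pair the median of the list was 0.48 as deposited.

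Glucocorticoid target genes, also chosen after their values were seen, had a median of 0.60 as deposited and 0.91 after quantile normalization over 16 members. As deposited 6 were at least 2-fold higher and 1 lower, beside 13.5% and 13.2% of all genes. As a difference or bound 2 were higher, beside 2.15%. Fkbp5, a co-chaperone of the glucocorticoid receptor, read 10.43 on tumor low and 8.18 on normal high, at least 1.27-fold higher. It read 11.26 on tumor high and 9.27 on normal low. Per1, a clock gene that glucocorticoids also induce, read 9.39 and 8.70, for which no fold can be given, and 11.31 and 9.33. Both genes were below background on normal high and on normal low. Tsc22d3 (GILZ) read 11.18 and 9.96, at least 2.12-fold higher. In the myeloid-type pair the median of this list was 0.40 as deposited.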
